A study of Homo sapiens with 24 samples.

Results

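Gene expression was compared between MV4-11 cells that received SAHA together with ABT-869 and MV4-11 cells that received ABT-869 alone. This asks what the deacetylase inhibitor adds in the presence of the kinase inhibitor. The comparison used the 3 arrays of the combination and the 3 arrays of ABT-869 in this line, 6 of 24 arrays in the series. The other 18 arrays covered SAHA alone and DMSO in MV4-11 and the same 4 treatments in MOLM-14. MV4-11 and MOLM-14 are human acute myeloid leukemia (AML) lines of monocytic type with an internal tandem duplication of FLT3 (FLT3-ITD), and MV4-11 carries the mutated allele alone. Per the study's methods, cells were kept for 24 h with the drugs, ABT-869 at 3 nM and SAHA at 6 µM, and the doses within the combination were not restated. Each array was a separate culture of 1 established line, so the results describe that line. In bulk RNA, fewer cells in a state and less RNA per cell cannot be told apart.

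FLT3 is a receptor tyrosine kinase of early blood progenitors, and the tandem duplication keeps it active without ligand, which drives STAT5, ERK and AKT signaling. ABT-869 is an inhibitor of several receptor tyrosine kinases, FLT3 among them. SAHA (vorinostat) inhibits zinc-dependent histone deacetylases, enzymes that take acetyl groups off histones and other proteins, and such inhibitors are known to arrest the division of leukemia cells and to change the expression of many genes in both directions.

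Signals were Affymetrix U133 Plus 2.0 intensities, one value per probe set (a group of probes against one transcript region), on a scale where the trimmed mean of each array lay between 500.06 and 500.07. Signals below 32 were set to 32, which touched 27.9% of the values on the 6 arrays, and changes are differences of mean log2 signals, combination minus ABT-869. A call required an adjusted p under 0.05 in limma, with the Benjamini-Hochberg adjustment over all 54613 probe sets and an error estimated over the 12 MV4-11 arrays. Arrays of one group had a Pearson's r of 0.968 to 0.976 across probe sets in the 2 groups. Array medians were 98.7, 78.5 and 86.9 for the combination, against 97.6, 99.4 and 96.2 for ABT-869, a log2 shift of -0.16. FLT3 itself read 12123 to 13226 on the combination arrays and 14056 to 16736 on the ABT-869 arrays. Of the monocyte markers, LYZ (lysozyme) was strong, with signals of 18691, 18464 and 18109.8 in the combination and 16669, 18193 and 18698 in ABT-869. CD14, the classical surface marker of mature monocytes, was above 32 on 1 ABT-869 array and on no combination array. T cell markers (7 measured, 6 above 32 on any array) summed to 247 to 425 with the combination and 365 to 467 with ABT-869.

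Adding SAHA to ABT-869 raised 304 probe sets at least 2-fold at an adjusted p under 0.05 (0.557% of those tested) and lowered 459 (0.84%). These named 232 genes that were higher and 314 that were lower. The balance depended on scaling. With quantile normalization the counts were 401 higher and 418 lower, and with arrays centred on their medians 527 higher and 240 lower. Without the 2-fold requirement 2463 probe sets were higher and 2068 lower, while 10762 had an unadjusted p under 0.05. Of the 2-fold rises, 18 had all 3 ABT-869 arrays at the floor, and of the falls, 24 had all 3 combination arrays there.

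Among genes above 32 on all 6 arrays and without overlap between the groups, the largest rise was that of MNDA, an interferon-inducible nuclear protein of granulocytes and monocytes. Its signals were 1704, 1873 and 1679 with the combination, against 318, 248 and 319.5 with ABT-869, a log2 change of 2.58 ± 0.10 (SE, n = 3 each, adjusted p = 8.66e-06, limma). ATP8B2, a phospholipid flippase, read 2458, 1662 and 1981 with the combination and 617, 535 and 469 with ABT-869 (log2 1.90 ± 0.19, adjusted p = 0.000655, limma). In both genes every combination array was far above every ABT-869 array. CA2, a carbonic anhydrase, had 421, 489 and 312 in the combination and 103, 108 and 112 in ABT-869. GNG11, a gamma subunit of heterotrimeric G proteins, had 461, 411 and 346 in the combination and 122, 119.5 and 77.8 in ABT-869. ADAM28, a membrane metalloprotease of blood cells, had 337, 286 and 211 against 91.1, 82.1 and 33.8. Their log2 changes were 1.90 for CA2, 1.95 for GNG11 and 2.11 for ADAM28. The other 3 probe sets of ADAM28 changed by 0.56 to 0.95 and did not pass, and its call ended with only the 2 groups fitted. A second probe set of GNG11 changed by -0.48 and did not pass. The actin-binding gene TAGLN also rose, by 2.49, while its other 2 probe sets changed by -0.45 and 0.85 and did not pass. SPIDR, a scaffold of homologous recombination repair, rose by 1.87, against -0.19 to 0.75 in its other 3 probe sets. The remaining members of the 10 largest rises, COX4I1, SLC46A3 and CASTOR2, had adjusted p of 0.0406, 0.0455 and 0.039 and lost their calls when any of 9, 9 and 8 of the 12 arrays was left out.

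**Figure D1:**
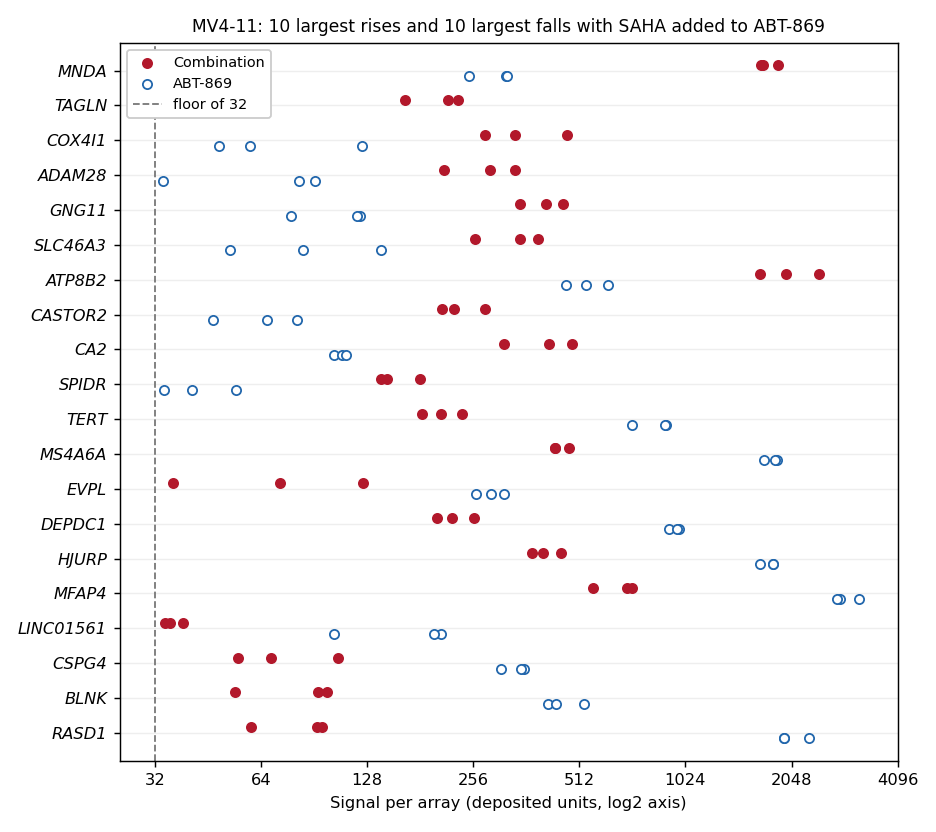
Signal of the 10 genes with the largest rises and the 10 with the largest falls in MV4-11 on each array (x, log2 axis, deposited units), with 3 filled points per gene for the combination and 3 open points for ABT-869. The groups do not overlap in any of these genes, as the selection required, and the dashed line is the floor of 32.

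By the same selection the largest fall was that of RASD1, a small GTPase of the Ras family that is induced by glucocorticoids. It read 59.8, 95.0 and 92.5 with the combination, against 1947, 2299.9 and 1948 with ABT-869 (log2 -4.67 ± 0.39, adjusted p = 0.000285, limma), and the groups lay far apart. BLNK, an adaptor of B cell receptor signaling, fell to 53.9, 98.3 and 92.7 with the combination, against 417, 529 and 439.5 with ABT-869. CSPG4 (NG2), a surface proteoglycan used as a marker of KMT2A-rearranged leukemia, fell to 68.3, 55.1 and 106, against 308, 358 and 349. MFAP4, a glycoprotein of elastic fibers, read 561, 698 and 721 in the combination and 2812, 3185 and 2764 in ABT-869. TERT, the catalytic subunit of telomerase, read 238, 183 and 208 in the combination and 901, 896 and 724 in ABT-869. Log2 changes were -2.54 for BLNK, -2.20 for CSPG4, -2.15 for MFAP4 and -2.00 for TERT, and each held with any array left out. EVPL (-2.06) and LINC01561 (-2.17) completed the 10 with HJURP, DEPDC1 and MS4A6A, which are described below. The EVPL and LINC01561 calls ended when any of 5 and any of 4 arrays was left out.

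Among genes at the floor on all 3 ABT-869 arrays, the largest rises that held with any array left out were COL1A1, SIX4 and SEMA6A. COL1A1, a chain of type I collagen, had combination signals of 130.5, 121 and 161. SIX4, a homeobox factor, had 108, 142 and 121 and SEMA6A, a semaphorin, 175, 63.1 and 85.9. The other 4 probe sets of SEMA6A changed by -0.52 to 2.62, and 2 of them passed in the same direction. The SEMA6A call ended with only the 2 groups fitted. Other probe sets of COL1A1 changed by -0.91 to 1.04 and a second one of SIX4 by 0.00, so the rise in both genes belonged to a single probe set. In the other direction TPSAB1, a tryptase of mast cells and basophils whose probes may also read the near-identical TPSB2, was at the floor in the combination with deposited signals of 15.4, 9.1 and 19.5, against 129, 113 and 128 with ABT-869.

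**Figure D2:**
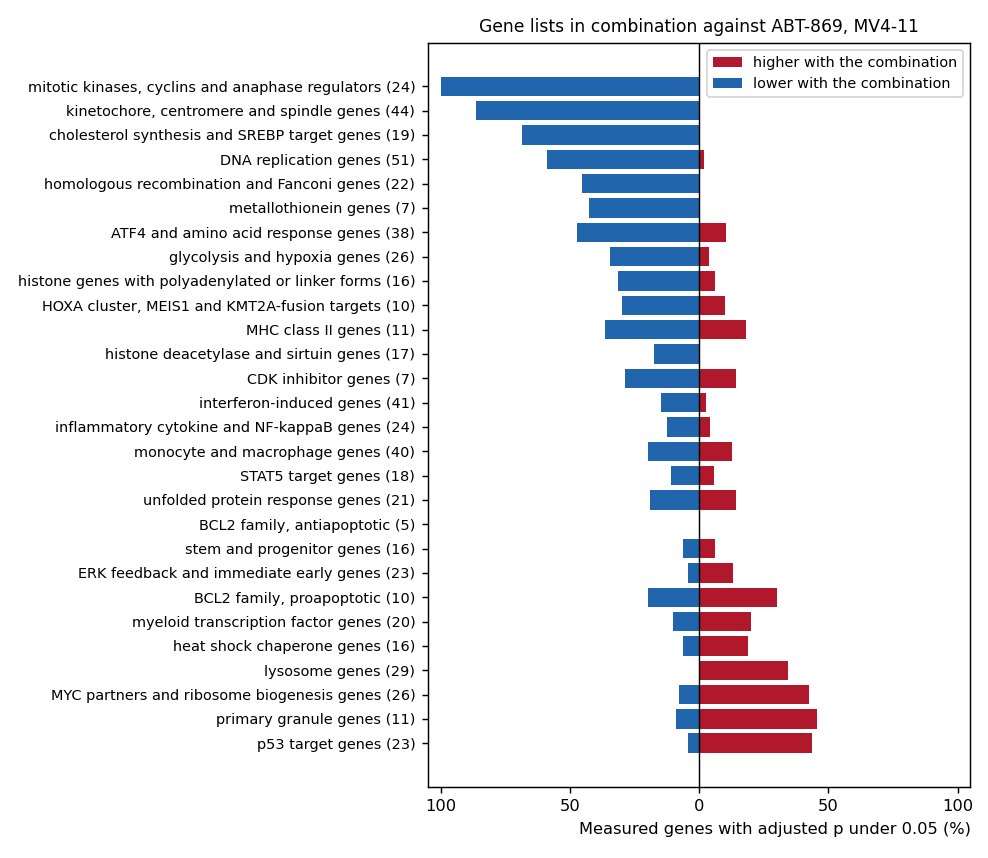
Share of the measured genes in each list (number in brackets) that were lower (blue, to the left) or higher (red, to the right) with the combination than with ABT-869 in MV4-11, at an adjusted p under 0.05. The lists of cell division stand at the top with 24 of 24 mitotic regulators lower, and the p53 target, primary granule, ribosome biogenesis and lysosome lists stand at the bottom.

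Cell division genes made up the most uniform fall. Of all 19775 genes, each taken by its brightest probe set, 7.65% were higher and 5.86% lower at an adjusted p under 0.05, with a median log2 change of -0.01. All 24 measured mitotic kinases, cyclins and anaphase regulators were lower, with a median of -1.22. Of 44 kinetochore, centromere and spindle genes 38 were lower and 0 higher, with a median of -1.05.

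At mitotic entry, cyclin B1 activates CDK1 and the phosphatase CDC25C removes the inhibitory phosphates, while PLK1 acts from entry to exit. CCNB1 (cyclin B1) read 364, 387 and 437 with the combination, against 1335, 1414 and 1268 with ABT-869, a log2 change of -1.76 ± 0.08 (adjusted p = 2.05e-05, limma). PLK1 read 479, 584 and 531 in the combination and 1522, 1771 and 1396 in ABT-869 (-1.55 ± 0.12, adjusted p = 0.000224, limma). CDC25C read 161, 194 and 249.8 in the combination and 623, 589 and 489 in ABT-869 (-1.51 ± 0.16). All 3 combination arrays lay below all 3 ABT-869 arrays in each gene, by about the same factor. UBE2C, which works with the anaphase-promoting complex to tag mitotic proteins for degradation, had the largest change of its list, with 1044, 1428 and 1128 in the combination and 4018, 4412 and 3949 in ABT-869 (-1.79 ± 0.10). TOP2A, the topoisomerase that untangles sister chromatids, read 2420.1, 2525 and 2655 in the combination and 7497, 7727 and 6871 in ABT-869 (-1.54 ± 0.05).

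At the centromere and spindle the same order held. HJURP, the chaperone that loads the centromeric histone CENP-A, fell to 453, 404 and 377 with the combination, against 1815, 1669.8 and 1814 with ABT-869 (-2.11 ± 0.12, adjusted p = 5.74e-05, limma). NDC80, which ties kinetochores to microtubules, read 428, 508 and 483 in the combination and 1272, 1618 and 1257 in ABT-869 (-1.54 ± 0.12). BUB1, a kinase of the spindle checkpoint, read 702, 748 and 705 in the combination and 1874, 1871 and 1832 in ABT-869 (-1.37 ± 0.04). In these 3 genes every combination array was more than 2-fold below every ABT-869 array. The depolymerizing kinesin KIF2C changed by -1.65, the spindle protein HMMR by -1.92 and the spindle-binding protein NUSAP1 by -1.24. DEPDC1, a gene of dividing cells, changed by -2.08. No named gene of this paragraph or the last lost its call when any 1 array was left out. Over all alternatives 18 to 24 mitotic regulators and 29 to 39 kinetochore genes stayed lower, the fewest when only the 2 groups were fitted.

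Many genes of late cell division carry a CHR element (core TTTGAA) and CCAAT boxes just before the transcription start, through which the DREAM and MuvB complexes and NF-Y act, and genes of DNA replication carry E2F sites. The 4 promoters below are those of the members with the largest falls that held both motifs within 130 bases before the start, and the 3 after them are those of the replication genes with the largest falls among those with an E2F match there. They are RefSeq sequences of GRCh38.p14, 5′ to 3′ on the strand of the gene, and capitals mark matches on either strand to the CHR core, the CCAAT box or the E2F words.
HMMR: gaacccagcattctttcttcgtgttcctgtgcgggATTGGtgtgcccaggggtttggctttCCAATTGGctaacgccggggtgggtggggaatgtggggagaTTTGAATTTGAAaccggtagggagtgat
PLK1: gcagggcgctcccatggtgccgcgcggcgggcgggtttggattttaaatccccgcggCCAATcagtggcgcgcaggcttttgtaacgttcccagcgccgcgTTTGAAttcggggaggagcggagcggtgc
ASPM: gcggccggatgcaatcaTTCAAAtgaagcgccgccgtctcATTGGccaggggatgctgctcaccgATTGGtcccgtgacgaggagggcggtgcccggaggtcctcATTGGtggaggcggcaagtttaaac
CDC25C: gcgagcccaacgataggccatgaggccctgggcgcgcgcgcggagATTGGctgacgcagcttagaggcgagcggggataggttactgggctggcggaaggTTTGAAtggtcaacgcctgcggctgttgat
TYMS: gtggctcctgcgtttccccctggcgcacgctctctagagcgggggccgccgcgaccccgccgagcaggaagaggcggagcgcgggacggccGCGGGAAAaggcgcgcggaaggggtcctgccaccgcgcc
CDT1: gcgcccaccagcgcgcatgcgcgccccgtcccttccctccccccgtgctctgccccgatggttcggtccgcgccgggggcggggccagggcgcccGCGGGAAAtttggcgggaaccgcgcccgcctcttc
LIG1: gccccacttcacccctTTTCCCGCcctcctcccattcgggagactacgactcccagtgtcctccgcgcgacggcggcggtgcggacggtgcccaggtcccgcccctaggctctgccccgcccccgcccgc
The HMMR stretch lies at chr5:163460502-163460631 on the plus strand, PLK1 at chr16:23678759-23678888 on the plus strand, ASPM at chr1:197146670-197146799 on the minus strand and CDC25C at chr5:138331805-138331934 on the minus strand. TYMS lies at chr18:657523-657652 on the plus strand, CDT1 at chr16:88803659-88803788 on the plus strand and LIG1 at chr19:48170345-48170474 on the minus strand. In HMMR the CHR core occurs as 2 copies side by side and 2 of its CCAAT matches overlap on opposite strands. In PLK1 and CDC25C one CCAAT match lies upstream of one CHR core.

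Over promoter windows of 300 bases (250 before the start and 50 after it), TTTGAA was present in 10 of 18 mitotic regulators with a promoter in the table (55.6%) and in 28 of 40 kinetochore genes (70%), against 15.6% of the 15384 genes of the array with a promoter. CCAAT was present in 15 of 18 (83.3%) and 30 of 40 (75%), against 41.7%. One of the E2F words TTTCCCGC, TTTGGCGC and TTTCGCGC was present in 22 of 45 DNA replication genes (48.9%), against 4.45%. A sterol element, TCACNCCAC, was found in 1 of 17 cholesterol genes (5.88%), against 1.43%. Over all 27305 genes of the table the shares were 18.2% for TTTGAA, 39.7% for CCAAT, 3.3% for the E2F words and 1.39% for the sterol element. These are counts of letters on both strands in any listed promoter of a gene, and binding was not measured.

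DNA replication genes fell less than mitotic genes, with 30 of 51 lower, 1 higher and a median of -0.48. The largest falls were in TIMELESS, a fork protection factor, with 964, 1076 and 1295 in the combination and 2914, 2824 and 2622 in ABT-869 (-1.34 ± 0.10, adjusted p = 0.000165, limma), and in RRM2, the regulated subunit of ribonucleotide reductase, with 3388, 3732 and 4189.9 in the combination and 8305, 9039.8 and 8529.9 in ABT-869 (-1.20 ± 0.07). ORC1, a subunit of the origin recognition complex, read 503, 483 and 425 in the combination and 967, 1078 and 1021 in ABT-869 (-1.12 ± 0.10). ORC5, another subunit of that complex, was the member that rose, to 1075, 1160.3 and 1211 in the combination, against 804, 809 and 777 in ABT-869 (0.53 ± 0.07). CDC6 (log2 -1.0), which loads the replicative helicase, and its subunits MCM2 (-0.69) and MCM5 (-0.72), named here after their values were seen, also fell. With only the 2 groups fitted 17 members were lower, and the call of MCM5 ended. Of 22 homologous recombination and Fanconi genes 10 were lower and 0 higher, with a median of -0.57 (5 lower with only the 2 groups fitted), led by BRIP1 (-1.07), RAD51AP1 (-1.02) and the checkpoint kinase CHEK1 (-0.98). The CHEK1 call ended with only the 2 groups fitted.

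The second group to fall was cholesterol synthesis, where 13 of 19 measured genes were lower and 0 higher, with a median of -0.60. This pathway turns acetyl-CoA through mevalonate into sterols, and its enzymes are known targets of the transcription factor SREBP2. HMGCS1, which makes the precursor of mevalonate, read 1008, 854 and 1152 with the combination, against 2541, 3699 and 3031 with ABT-869 (-1.62 ± 0.14, adjusted p = 0.000388, limma). ACAT2, the thiolase of the first step, read 2528, 2726 and 2458 in the combination and 5395, 6323 and 5363 in ABT-869 (-1.14 ± 0.07, adjusted p = 7.41e-05, limma). MSMO1, a sterol demethylase late in the pathway, read 1946, 2282 and 2274 in the combination and 3778, 5174 and 4296 in ABT-869 (-1.02 ± 0.13). The 3 genes fell at both ends of the pathway. IDI1 (-0.90), SQLE (-0.70), LSS (-0.82) and DHCR7 (-0.52) also fell, as did INSIG1 (-0.96), a sterol-sensing brake on SREBP whose gene is itself a target of it. SREBF2, which encodes SREBP2, changed by -0.10 ± 0.07 and did not pass, nor did MVD, PMVK, NSDHL, HSD17B7 and TM7SF2. The count was 8 with only the 2 groups fitted, where the call of SQLE ended, and 12 or 13 with any array left out.

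**Figure D3:**
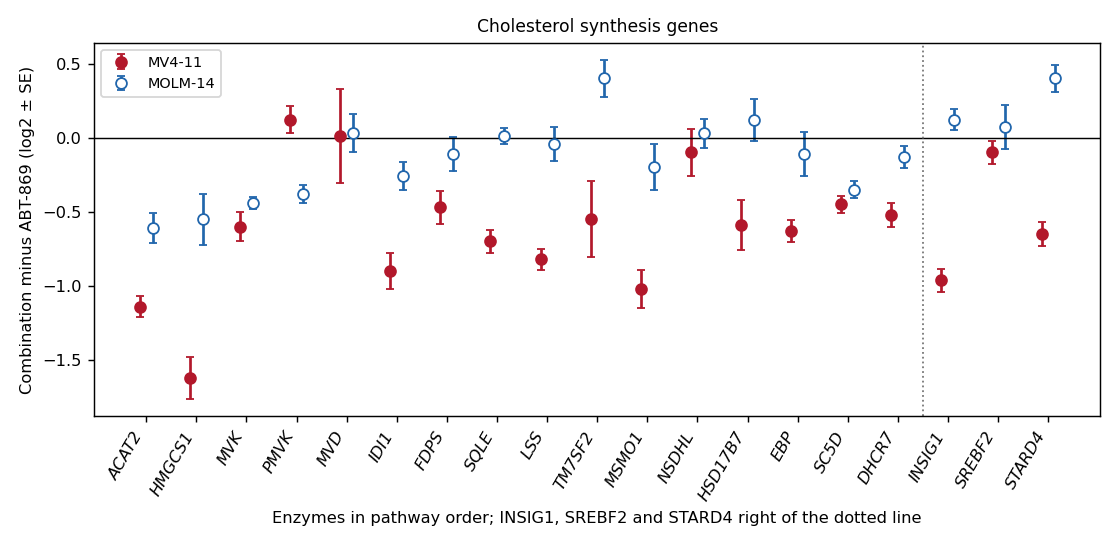
Log2 change of the 19 measured cholesterol genes (combination minus ABT-869, points, with bars of 1 SE) in MV4-11 (filled) and MOLM-14 (open), enzymes in pathway order and 3 regulators or carriers to the right of the dotted line. MV4-11 has -1.62 in HMGCS1 and -0.96 in INSIG1, where MOLM-14 has -0.55 and 0.12.

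The amino acid response through ATF4 also fell in part. ATF4 is a transcription factor that raises amino acid synthesis, transport and tRNA charging when amino acids are short. With ABT-869 present, SAHA lowered 18 of 38 measured genes of this list and raised 4, with a median of -0.37 (7 lower with only the 2 groups fitted). CHAC1, which degrades glutathione, fell to deposited signals of 28.2, 40.9 and 12.1 in the combination, against 318, 332 and 327 in ABT-869, so 2 of 3 combination arrays were below the floor (-3.23 ± 0.09, adjusted p = 2.86e-06, limma). ATF5, a related factor, read 325, 283 and 388 in the combination and 789.6, 725 and 944 in ABT-869 (-1.31 ± 0.19). CTH, of cysteine synthesis, read 272, 321 and 254 in the combination and 619.9, 656 and 582 in ABT-869 (-1.14 ± 0.09). The stress factor DDIT3 changed by -0.97. Those that rose were CEBPB, ALDH18A1 of proline synthesis (0.80) and the tRNA synthetases WARS1 (0.80) and SARS1 (0.43, adjusted p = 0.0449, a call that ended with some arrays left out).

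SAHA was also compared with DMSO in MV4-11, on 6 arrays whose signals do not enter the change between the combination and ABT-869, though they share in its error estimate. It raised 397 probe sets at least 2-fold (0.727%) and lowered 264 (0.483%). Of these rises 102 were shared with the 304 of the combination over ABT-869, 33.6% of those of the combination and 25.7% of those of SAHA alone. Of the falls 62 were shared, 13.5% of those of the combination and 23.5% of those of SAHA alone. The direction was the same without ABT-869 for 271 of the 304 rises and 407 of the 459 falls. How often it was the same over all probe sets was not counted, so these counts stand without a background. Since the 304 and 459 were selected on their own change, their medians (1.22 for rises and -1.27 for falls) are given only beside those without ABT-869 (0.75 and -0.50).

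The departure from additivity, the change with SAHA in the presence of ABT-869 minus its change without it, was tested in one limma fit over the 12 arrays. It was called at least 2-fold higher for 71 probe sets (0.13%) and lower for 93 (0.17%). By gene, 0.708% were called higher and 0.925% lower, whatever their size. The test was sensitive to the treatment of low signals, with 8 and 4 calls when the floor was 1. Calls of genes with signals well above 32, such as CCNB1, also ended at that floor, and the cause was not tested. With 1 array left out 44 to 69 were higher and 63 to 118 lower, the fewest in each direction without replicate 1 of SAHA. Of the 459 falls 84 had a departure in the same direction, and of the 304 rises 20.

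Mitotic genes fell with SAHA alone as well, by less in the median. SAHA alone lowered 16 of 24 mitotic regulators (median -0.42) and 20 of 44 kinetochore genes (median -0.43), against a background over all genes of 6.45% higher and 4.72% lower. ABT-869 alone, compared with DMSO on arrays of which the ABT-869 ones are shared with the main comparison, gave medians of -0.01 and -0.03. CCNB1 read 856, 784 and 795 with SAHA, against 1100.4, 1279 and 1227 with DMSO, so it was lowest on the combination arrays. Its departure was -1.20 ± 0.12 (adjusted p = 0.00417, limma). NUSAP1 read 2777, 2783 and 2821 with SAHA and 2802, 2990.5 and 2722 with DMSO, groups that overlapped, and its departure was -1.21 ± 0.08 (adjusted p = 0.00104, limma). HJURP, DEPDC1, BUB1, TOP2A and RRM2 had departures of -1.32, -1.23, -0.84, -0.96 and -1.02. The departure was called lower in 9 of 24 mitotic regulators, 16 of 44 kinetochore genes, 9 of 51 replication genes and 4 of 19 cholesterol genes, and higher in 0 of each. At a floor of 1 all 4 counts were 0, and with 1 array left out they were 4 to 8, 6 to 14, 4 to 13 and 2 to 5. The fewest came without replicate 1 of DMSO for the mitotic and kinetochore lists, replicate 1 of SAHA for replication and replicate 2 of SAHA for cholesterol. The calls of the 7 genes named in this paragraph each ended at a floor of 1, and all but that of NUSAP1 also ended with arrays centred on their medians. They held with any array left out.

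**Figure D4:**
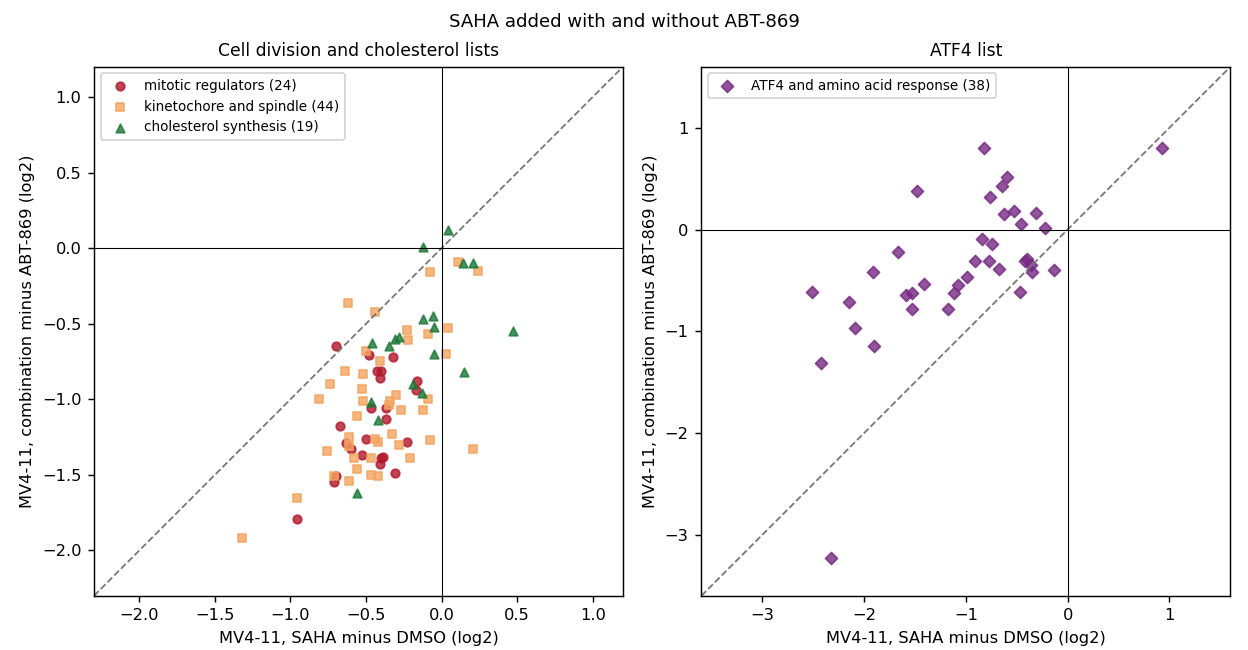
Log2 change with SAHA in the absence of ABT-869 (x, SAHA minus DMSO) and in its presence (y, combination minus ABT-869) in MV4-11, 1 point per gene, with the dashed line at equality. Cell division and cholesterol genes (left) lie mostly below the line, with medians of -0.42 on x and -1.22 on y for the mitotic regulators, and ATF4 list genes (right) lie mostly above it, with medians of -0.83 and -0.37.

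The ATF4 list departed in the other direction. SAHA alone lowered 30 of its 38 genes and raised 1 (median -0.83), and ABT-869 alone, on the shared arrays, lowered 28 and raised 1 (median -0.80). Over all 19775 genes ABT-869 alone lowered 652 and raised 596. Each drug alone thus lowered most of the list, and the median of the list fell by less with SAHA on top of ABT-869 than with SAHA alone. TRIB3, a pseudokinase that dampens this response, read 384, 376 and 468 in the combination, 649.9, 559.8 and 639 in ABT-869, 542, 633 and 507 in SAHA and 3574, 3618 and 3376 in DMSO. All 9 drug-treated arrays were far below the 3 DMSO arrays, and the departure was 2.06 ± 0.15 (adjusted p = 0.0016, limma). CEBPB, a transcription factor of myeloid cells and of this response, read 2024, 2005 and 1852 in the combination, 1585, 1432 and 1502 in ABT-869, 1573, 1736 and 1641 in SAHA and 4402, 4721 and 4670.3 in DMSO, with a departure of 1.86 ± 0.08 (adjusted p = 0.00019, limma). WARS1 read 2586, 2495 and 2735 in the combination, 1588, 1484 and 1412 in ABT-869, 2244, 2168 and 2580.1 in SAHA and 4022, 4054 and 4217 in DMSO, with a departure of 1.62 ± 0.10 (adjusted p = 0.000843, limma). In CEBPB and WARS1 SAHA alone lowered the signal and SAHA on top of ABT-869 raised it, though the rise of CEBPB was not called at a floor of 1 or with only the 2 groups fitted. Departures of CEBPG (0.78) and of ASNS, asparagine synthetase (1.49), had the same sign and ended at a floor of 1. In all 16 of the 38 genes were called higher and 1 lower (3 and 0 at a floor of 1, and 9 to 14 higher with 1 array left out, the fewest without replicate 3 of DMSO). The 1 called lower was CHAC1 (-0.90), the gene of the list that fell furthest with SAHA on top of ABT-869. Its departure ended at a floor of 1, with quantile normalization, with centring and without replicate 2 or 3 of SAHA, among other settings. The calls of TRIB3, CEBPB and WARS1 held at a floor of 1 and with any array left out. The 7 metallothionein genes, which encode metal-binding proteins with sequences so alike that probes may not separate them, were all 7 lower with SAHA alone (median -1.61) and with ABT-869 alone (median -1.76), and 3 were lower with SAHA on top of ABT-869 (median -0.64). The departure was called in 1 of the 7, MT1G (1.15), a call that ended at a floor of 1, with centring, with the replicate block and with any of 7 arrays left out.

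Myeloid genes moved in both directions. Of 40 monocyte and macrophage genes 5 were higher and 8 lower with the combination than with ABT-869 (median -0.09, and 4 lower without replicate 1 of the combination or with arrays centred on their medians), while SAHA alone raised 16 and lowered 1 (median 0.34). Signals of the list summed to 63460 to 65199 on the combination arrays and 66884 to 75217 on the ABT-869 arrays. The calgranulins S100A8 and S100A9, calcium-binding proteins of monocytes and neutrophils, went opposite ways with and without ABT-869. S100A9 read 76.5, 96.8 and 134 in the combination and 239, 232 and 215 in ABT-869, against 270.2, 295 and 234 in SAHA and 120.3, 99.2 and 90.1 in DMSO. Its change was -1.20 ± 0.20 with ABT-869 present and 1.37 ± 0.20 without it, a departure of -2.57 ± 0.28 (adjusted p = 0.00672, limma). The call of the S100A9 fall with ABT-869 present ended with only the 2 groups fitted. S100A8 changed by -1.08 with ABT-869 present (adjusted p = 0.0155, lost without replicate 1 or 3 of the combination, with centring and with only the 2 groups fitted) and by 2.31 without it, a departure of -3.38 ± 0.30 (adjusted p = 0.00303, limma). Both departures held at a floor of 1 and with any array left out. MS4A6A, a membrane protein of monocytes, fell to 477, 436 and 437 in the combination, against 1712, 1864 and 1844 in ABT-869, with a departure of -1.24 ± 0.10 (adjusted p = 0.00182, limma), which ended at a floor of 1.

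Of 11 primary granule genes, the enzymes and antimicrobial proteins of promyelocytes, 5 were higher and 1 lower (median 0.18). CTSG, cathepsin G, read 16287, 18727 and 19704 with the combination and 8789, 8494 and 7191 with ABT-869 (1.16 ± 0.09, adjusted p = 0.000219, limma). MPO, myeloperoxidase of the same granules, went the other way, with 613, 723 and 946 in the combination and 2800.4, 3109 and 2863 in ABT-869 (-1.96 ± 0.14, adjusted p = 0.000145, limma) and a departure of -1.55 ± 0.20, which ended at a floor of 1, with centring and in 1 fit over all 24 arrays. ELANE, neutrophil elastase, changed by 0.41 and RNASE2 by 0.56. The ELANE call ended at a floor of 1 and the RNASE2 call with only the 2 groups fitted. Of the MHC class II genes 2 of 11 were higher and 4 lower (1 and 0 with only the 2 groups fitted), with HLA-DMA, the peptide exchange chaperone, at 1.08 and HLA-DRA at -1.0. Among myeloid transcription factors KLF4, a factor of monocytic differentiation, rose to 1301, 1364 and 1253 in the combination, against 589.7, 551 and 601 in ABT-869 (1.17 ± 0.05, adjusted p = 8.99e-06, limma), and IRF8, which directs progenitors to monocytes, fell by 0.71 on the log2 scale. JUN, an immediate early factor, rose by 1.16.

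Genes of the p53 response and the lysosome rose in part. Of 23 p53 target genes 10 were higher and 1 lower (median 0.38, and 2 higher with only the 2 groups fitted). ZMAT3, an RNA-binding protein, read 1880.1, 1831 and 1889 in the combination and 972, 863 and 827 in ABT-869 (1.08 ± 0.10, adjusted p = 0.000397, limma). TP53INP1, of autophagy and cell death, read 612, 740.1 and 754 in the combination and 324, 165 and 308 in ABT-869 (1.46 ± 0.24). PLK2 changed by 1.15, and its call and that of TP53INP1 ended with only the 2 groups fitted. CDKN1A, the CDK inhibitor p21, changed by 0.40 (adjusted p = 0.0281, lost when any of 4 arrays was left out). Of 29 lysosome genes 10 were higher and 0 lower (median 0.29, and 4 higher with only the 2 groups fitted), with the protease CTSD at 1.0 and the proton pump subunit ATP6V0D1 at 0.89.

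Death regulators of the BCL2 family split. Of 10 proapoptotic members 3 were higher, BH3-only HRK at 1.32, BCL2L11 (BIM) at 0.66 and the effector BAX at 0.66, and 2 lower, PMAIP1 (NOXA) at -0.94 and BIK at -0.63. The calls of BAX and BIK ended with only the 2 groups fitted. BCL2L11 read 3342, 3261 and 3604 in the combination and 1913, 2304 and 2258 in ABT-869, and PMAIP1 774, 914 and 864 in the combination and 1933, 1493 and 1507 in ABT-869. None of 5 antiapoptotic members passed, where 1159 genes overall were lower and 1512 higher by the same rule. MCL1, one of them, read 5659, 5879 and 6468 in the combination and 6141, 6529 and 6342 in ABT-869, and the groups overlapped.

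Targets of FLT3-ITD signaling passed the test at shares near those of all genes, 7.65% higher and 5.86% lower. Of 18 STAT5 target genes 1 was higher and 2 lower. PIM1, a kinase downstream of STAT5, read 893, 955 and 1174 in the combination and 543, 600.5 and 496 in ABT-869 (0.88 ± 0.12), a call that ended with only the 2 groups fitted. The feedback inhibitor SOCS1 changed by -0.62, a call that ended with centring. Of 23 genes of ERK feedback and the immediate early response 3 were higher and 1 lower. FLT3 itself changed by -0.31 ± 0.06 (adjusted p = 0.0177), a call that ended without replicate 2 or 3 of ABT-869 or replicate 1 or 3 of the combination, at a floor of 1, with centring and with only the 2 groups fitted. PTP4A3 (PRL-3), a phosphatase that the study followed as a target of FLT3-ITD, read 804, 887 and 964 in the combination and 1169, 1541 and 1315 in ABT-869 (-0.59 ± 0.11, adjusted p = 0.0137, limma). Its groups did not overlap, and the call ended at a floor of 1, with centring and with only the 2 groups fitted. Of the other genes that the study followed, MND1 (-1.27) and ZNF85 (-1.14) fell and LMO4 (1.04) rose, while HDAC4 (-0.05), STAT3 (0.27) and STAT5A (-0.28) did not pass. A second probe set of ZNF85 changed by 0.00, and the LMO4 call ended with only the 2 groups fitted. STAT5B was lower (-0.31, adjusted p = 0.0261, limma), a call that ended with any of 4 arrays left out, at a floor of 1, with centring, with the replicate block and with only the 2 groups fitted. Of 17 histone deacetylase and sirtuin genes 3 were lower, with HDAC9 at -0.89 (lost with only the 2 groups fitted) and SIRT1 at -0.77. The targets of SAHA among them were measured as RNA alone, and acetylation was not measured.

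MYC, a transcription factor of cell growth, read 22668, 24594 and 21814 in the combination and 17088, 19294 and 16573 in ABT-869 (0.38 ± 0.07, adjusted p = 0.0106, limma). That call ended at a floor of 1 and with only the 2 groups fitted. It also ended on probe sets above the floor on at least 3 arrays. Of 26 MYC partner and ribosome biogenesis genes 11 were higher and 2 lower (median 0.28), a count that fell to 5 without replicate 3 of ABT-869 and to 2 with only the 2 groups fitted. NME1, a nucleoside diphosphate kinase, read 9971, 10787 and 13119 in the combination and 7344, 7336 and 6681 in ABT-869 (0.66 ± 0.10), a call that ended with only the 2 groups fitted. MAX, the partner of MYC, changed by 0.64. Of 26 glycolysis and hypoxia genes 9 were lower and 1 higher (median -0.27, and 3 lower with only the 2 groups fitted), led by the aldolase ALDOC with 2410, 2579 and 3402 in the combination and 5944, 9681 and 7409.5 in ABT-869 (-1.44 ± 0.18). The ALDOC call ended with only the 2 groups fitted. Genes induced by interferon were 6 lower and 1 higher of 41, with IRF7 at -1.36 (1 lower and 2 higher with centring). The NF-kappaB inhibitor gene NFKBIA changed by -0.89 and the adhesion gene ICAM1 by -0.83. Markers of T cells, B cells, megakaryocytes and fibroblasts had no call among 7, 7, 7 and 8 genes measured, and of 5 erythroid markers the receptor gene EPOR was lower, a call that ended when any of 4 arrays was left out. Erythroid marker signals summed to 841 to 1438 with the combination and 1642 to 2151 with ABT-869, megakaryocyte markers to 485 to 644 and 644 to 920, B cell markers to 1347 to 1818 and 1453 to 1683, and fibroblast markers to 743 to 933 and 892 to 1064. CD8A, PPBP and MARCO, markers of cytotoxic T cells, platelets and tissue macrophages, were below 32 on all 6 arrays. At least 1 of these arrays was above 32 for 6 of 7 T cell markers and 6 of 7 megakaryocyte markers. The same held for 39 of 40 monocyte and macrophage genes. The part of other cell types in the results was not tested.

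The same comparison in MOLM-14 used separate arrays and raised 902 probe sets at least 2-fold (1.65%) and lowered 467 (0.855%). By gene 10.3% were higher and 9.53% lower. Of the 304 rises of MV4-11, 128 were also called in MOLM-14, which is 42.1% of the MV4-11 rises and 14.2% of those of MOLM-14. Of the falls 71 were called in both, 15.5% of those of MV4-11 and 15.2% of those of MOLM-14. The direction was the same in MOLM-14 for 279 of the rises and 366 of the falls, again without a count over all probe sets. MNDA rose in both lines, with 1760.4, 1962 and 2012 in the combination and 434, 427 and 415 in ABT-869 in MOLM-14. The difference between the lines, tested as an interaction over 24 arrays, was called at least 2-fold higher in MV4-11 for 296 probe sets (0.542%) and lower for 608 (1.11%), and by gene for 5.73% and 4.77%. With arrays centred on their medians these counts were 777 and 278.

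Cell division genes and DNA replication genes separated the 2 lines in opposite directions. Mitotic regulators fell further in MV4-11 (median -1.22) than in MOLM-14 (median -0.57, 19 of 24 lower), and the difference was called lower in 14 of 24 and higher in 1. For kinetochore genes MOLM-14 had a median of -0.50 with 27 of 44 lower, and the difference was called lower in 21 and higher in 2. Replication genes fell further in MOLM-14, with 46 of 51 lower and a median of -1.27, against -0.48 in MV4-11, and the difference was called higher in MV4-11 in 29 and lower in 1. With arrays centred on their medians the 3 counts were 9, 11 and 36, so the directions were kept. CCNB1 in MOLM-14 read 1567, 1572 and 1751 in the combination and 2084, 2115 and 2345 in ABT-869, a smaller fall than in MV4-11 (difference -1.34 ± 0.11, adjusted p = 7.27e-06, limma). HJURP, DEPDC1, UBE2C and TOP2A had differences of -1.5, -1.49, -1.07 and -1.01. MCM10, an initiation factor named after its values were seen, went the other way, with 390, 271 and 322 in the combination and 1757, 1657 and 1521 in ABT-869 in MOLM-14, and 776, 809 and 807 in the combination and 1141, 995 and 968 in ABT-869 in MV4-11 (difference 1.97 ± 0.21, adjusted p = 3.24e-05, limma). MCM5 had a difference of 1.22.

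**Figure D5:**
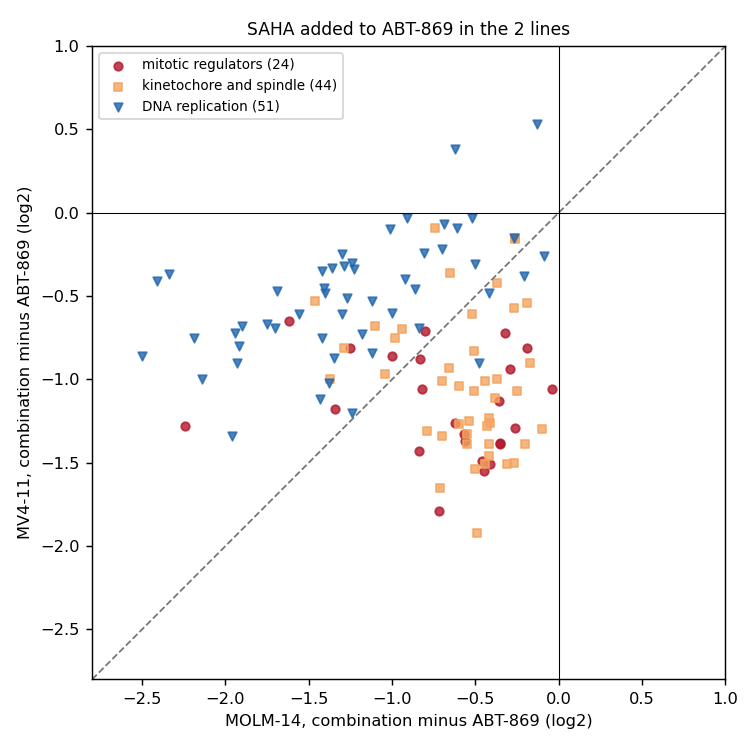
Log2 change with SAHA added to ABT-869 in MV4-11 (y) and MOLM-14 (x) for mitotic regulators, kinetochore and spindle genes and DNA replication genes, 1 point per gene, with the dashed line at equality. Most mitotic and kinetochore genes lie below the line and most replication genes above it, with replication medians of -0.48 in MV4-11 and -1.27 in MOLM-14.

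RASD1 fell in both lines and further in MV4-11, where MOLM-14 had 626, 483 and 533 in the combination and 1712, 1321 and 1786 in ABT-869 (difference -3.12 ± 0.48, adjusted p = 0.000722, limma). CHAC1 changed in MV4-11, while in MOLM-14 it read 108, 26.2 and 74.4 in the combination and 106, 53.4 and 36.2 in ABT-869, groups that overlapped (difference -3.34 ± 0.57, adjusted p = 0.00143, limma). INSIG1 in MOLM-14 read 10799, 9060 and 9427 in the combination and 9201, 8322 and 9406 in ABT-869, with no fall (difference -1.08 ± 0.11, adjusted p = 2.25e-05, limma). Of the cholesterol genes 4 of 19 were lower and 1 higher in MOLM-14 (median -0.11), and the difference was called lower in MV4-11 for 9 and higher for 1 (3 lower with centring, and 6 without replicate 1 of ABT-869 in MOLM-14). HMGCS1 had a difference of -1.06. PECAM1, an adhesion molecule of platelets, endothelium and monocytes, read 916, 988 and 924 in the combination and 2033, 1914 and 1872 in ABT-869 in MV4-11, and 1637, 1738 and 1811 in the combination and 1591, 1664 and 1739 in ABT-869 in MOLM-14. Its difference was -1.09 ± 0.07 (adjusted p = 8.09e-07, limma), and it had also departed from additivity in MV4-11, by -0.94, a call that ended at a floor of 1 and with centring.

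TRIM14, an adaptor of antiviral signaling, went up in MV4-11, with 1776, 1919 and 1782 in the combination and 1135, 1105 and 1176 in ABT-869, and down in MOLM-14, with 1254, 1192 and 1354 in the combination and 1927, 1899 and 1865 in ABT-869. Its difference of 1.27 ± 0.07 had an adjusted p of 3.42e-08 in limma. The other 4 probe sets of TRIM14 changed by -0.80 to 0.13 in MV4-11 and did not pass, so the rise there belonged to 1 probe set. NME1 also went up in MV4-11 and down in MOLM-14 (difference 1.18), and so did ELANE (1.09). In MOLM-14 10 of the 26 MYC partner and ribosome biogenesis genes were lower and 2 higher (median -0.28), and the difference was called higher in MV4-11 for 16 and lower for 3. PIM1 rose in both lines and more in MOLM-14, with 2894, 3449.5 and 2739 in the combination and 627, 619.8 and 682 in ABT-869 there (difference -1.35). SOCS1 was lower with the combination in MV4-11 and higher in MOLM-14 (difference -1.29), as was FLT3 (difference -0.52, which ended with centring). ALDOC fell in MV4-11 and changed by 0.17 in MOLM-14, which did not pass (difference -1.62), and 12 of 26 glycolysis and hypoxia genes had a difference called lower in MV4-11 (5 with centring). CA2 rose further in MV4-11 (difference 1.5).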

How the data were processed

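Total RNA of triplicate cultures was hybridised to Affymetrix U133 Plus 2.0 arrays. The deposited table holds 1 intensity per probe set and array, and the authors had scaled every array to the same trimmed mean with software not given in the sources used here. Of 54675 probe sets, 62 controls were left out. Array annotation gave 1 gene for 41091 probe sets, several for 1801 and none for 11721.

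Intensities under 32 were set to 32 and their log2 values entered linear models in limma (version 3.58.1, under R 4.3.3) with 4 groups per line, 12 arrays, or 8 groups for the difference between lines. The number of arrays, 3 per group, limits the precision, since in an exact permutation test of 3 against 3 no p falls under 0.1. P-values weigh a difference of group means against the spread between these cultures, an error estimate that limma moderates over all probe sets. Genes in list counts were read from their brightest probe set. Named genes were the 10 largest changes in each direction on arrays above 32 without overlap between groups and the 5 largest against the floor. The 5 smallest p in each direction of each interaction were named too. In these 3 parts a gene stood by its probe set with the smallest p. Up to 3 genes per list and direction and the genes the study followed were named by their brightest probe set. Genes outside these rules were chosen after their values were seen. Not every gene picked by these rules is described in the text, though its calls enter the counts over named genes. The comparison, members and lists were chosen with earlier results of these data known. Alternatives covered the floor, quantile normalization, centring, dim probe sets, limma-trend, array weights, the replicate block, the samples fitted and each array left out. The fit was tested on simulated data, with 100 brighter probe sets changed by 1 and 100 by 2 on the log2 scale. At an adjusted p under 0.05 it called 65% and 94% of them. It also made 21 false calls among the unchanged probe sets, and 8 calls in a contrast without any change. The same-numbered arrays of the combination and ABT-869 had deviations correlated at 0.107, -0.039 and -0.093, so the numbers were not taken as pairs.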

Additional observations from a re-analysis of the deposited data

Results flagged for a closer look

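A test of the difference between 2 effects singled out the results below. The change with SAHA in the presence of ABT-869 differed from its change in the absence of ABT-869 in MV4-11, at least 2-fold, for 71 probe sets in the higher direction and 93 in the lower one. By list the difference was called lower in 9 of 24 mitotic regulators, 16 of 44 kinetochore genes, 9 of 51 DNA replication genes, 4 of 19 cholesterol genes and 7 of 40 monocyte genes, with 0 higher in each, and higher in 16 and lower in 1 of 38 genes of the ATF4 list. Over all genes 0.708% were called higher and 0.925% lower. At a floor of 1 the mitotic, kinetochore, replication and cholesterol lists had 0 calls. The monocyte list then had 2 lower and the ATF4 list 3 higher and 0 lower. The log2 differences of cell division genes were -1.32 for HJURP, -1.23 for DEPDC1, -0.84 for BUB1, -1.20 for CCNB1, -1.21 for NUSAP1, -0.96 for TOP2A and -1.02 for RRM2. In the ATF4 list they were 1.62 for WARS1, 1.86 for CEBPB, 0.78 for CEBPG, 2.06 for TRIB3 and 1.49 for ASNS. Genes of myeloid cells had -2.57 (S100A9), -3.38 (S100A8), -1.55 (MPO), -1.24 (MS4A6A) and -0.94 (PECAM1). PRKAR2B, a regulatory subunit of protein kinase A, had -1.05, a call that ended at a floor of 1 and with centring. NRGN, a calmodulin-binding protein, had -1.02, a call that ended at a floor of 1.

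The change with SAHA added to ABT-869 differed between MV4-11 and MOLM-14, at least 2-fold, for 296 probe sets in the higher direction and 608 in the lower one. The difference was called lower in 14 and higher in 1 of 24 mitotic regulators, 21 and 2 of 44 kinetochore genes, 9 and 1 of 19 cholesterol genes, 6 and 3 of 38 genes of the ATF4 list, 5 and 0 of 40 monocyte genes and 12 and 0 of 26 glycolysis and hypoxia genes. It was called higher in 29 and lower in 1 of 51 DNA replication genes and in 16 and 3 of 26 MYC partner and ribosome biogenesis genes. Over all genes 5.73% were called higher and 4.77% lower. With arrays centred on their medians 2 of the ATF4 list and 3 monocyte genes were called lower. Log2 differences were -3.12 for RASD1, -3.34 for CHAC1, -1.5 for HJURP, -1.49 for DEPDC1, -1.07 for UBE2C, -1.34 for CCNB1 and -1.01 for TOP2A. They were -1.06 for HMGCS1, -1.08 for INSIG1, -1.62 for ALDOC, -1.09 for PECAM1, -1.35 for PIM1, -1.29 for SOCS1 and -0.52 for FLT3. The positive ones were 1.27 for TRIM14, 1.18 for NME1, 1.5 for CA2, 1.09 for ELANE, 1.22 for MCM5 and 1.97 for MCM10.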

How the results depend on the processing

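No called change in a named gene reversed under the alternatives run. With arrays centred on their medians the combination over ABT-869 gave 527 rises and 240 falls, and with only the 2 groups fitted 160 and 262. With 1 array left out the rises ran between 275 and 309 and the falls between 377 and 501. With the replicate block they were 268 and 389. Departures from additivity were 8 higher and 4 lower at a floor of 1, 35 and 17 with centring, 47 and 58 on probe sets above the floor on at least 3 arrays (an alternative chosen after seeing the data), 37 and 38 with the replicate block and 112 and 172 in 1 fit over all 24 arrays. With 1 array left out they ran between 44 and 69 higher and 63 and 118 lower, the fewest without replicate 1 of SAHA in MV4-11. The difference between lines was 777 higher and 278 lower with centring, and ran between 266 and 359 and between 531 and 676 with 1 array left out. SAHA over DMSO kept 300 to 403 rises and 212 to 272 falls, and MOLM-14 796 to 935 rises and 445 to 503 falls, with 1 array left out. The cause of these shifts was not tested. Of 169 calls in named genes for the combination over ABT-869, 43 ended when some array was left out and 88 under another setting. For departures these were 16 and 39 of 44, and for the difference between lines 12 and 31 of 81. The majority direction turned under some setting in the histone, monocyte, myeloid transcription factor, MHC class II, interferon and unfolded protein response lists. Signals under 32 have no order here, and changes of genes at the floor are bounded by it.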
